A study of Mus musculus with 8 samples.

Results

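Transcripts of 10 genes of phosphatidylserine recognition and engulfment were measured in RNA from blood stem and progenitor cells, in mice with and without deletion of Jmjd6. The members were named by symbol, by a rule that used no measured values, but with earlier results of these data known. They were the receptor tyrosine kinases Mertk, Axl and Tyro3 and the bridging proteins Gas6, Pros1 and Mfge8. The rest were the direct receptors Timd4 and Stab1, the integrin subunit Itgav and the scavenger receptor Cd36. All 10 were among the 26146 gene symbols of the count table, and all 10 were among the 13439 genes that had enough counts to be tested. Bulk polyA RNA came from sorted Lin-Sca1+Kit+ (LSK) cells, the marrow fraction that holds stem cells and early multipotent progenitors. Libraries came from 4 wild type mice and 4 Jmjd6 KO mice, 1 per mouse. In the KO group a floxed Jmjd6 gene was removed by a Cre recombinase that acts in haematopoietic lineages; the sources used here do not give the driver of the Cre, the strain, the age, or whether wild type mice carried Cre or floxed alleles.

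Phosphatidylserine is a lipid that healthy cells keep on the inner face of the plasma membrane and that dying cells show on the outer face. Phagocytes bind it either directly, through receptors such as Timd4 and Stab1, or through soluble bridges: Gas6 and Pros1 link it to Mertk, Axl and Tyro3 (the TAM kinases), and Mfge8 links it to integrins that contain Itgav. Jmjd6 was itself first named a phosphatidylserine receptor and was later recognised as a nuclear oxygenase, which is the reason these genes are set against its loss here. In marrow these genes are best known from macrophages, which clear dying cells and expelled nuclei.

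Jmjd6 itself had means of 58.6 ± 5.93 and 28.7 ± 1.41 CPM in wild type and KO libraries (counts scaled to library size, mean ± SD, n = 4 each). Its log2 fold change was -1.03 (adjusted p = 0.0381, edgeR quasi-likelihood test). The count is given per gene symbol and may include exons that the deletion spares, and the source of the remaining KO counts was not tested. Jmjd6 shares 172 exon bases with Mettl23 on the opposite strand and 173 with Gm27401 on the same strand. The groups did not overlap, at 52.5 to 63.7 CPM in wild type and 27.5 to 30.7 CPM in KO. DESeq2 and limma voom also called Jmjd6, at adjusted p of 3.3e-07 and 0.00527. The edgeR call was lost in 7 of 8 fits with a single library left out, with adjusted p by edgeR up to 0.254. The log2 fold change stayed between -1.06 and -0.99 in those fits. Total counts ran from 9344779 to 15079960. Wild type replicate 4 and KO replicate 3 carried Xist at 1551 and 893 CPM and no Y-linked counts, unlike the other 6 libraries, so each genotype held 1 such library. Wild type replicate 1 and KO replicate 3 also stood apart from the rest, the former in blood lineage transcripts and the latter on the first principal component.

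No member passed the test between genotypes. By edgeR 0 of 10 passed an adjusted p of 0.05, where 0.0595% of all tested genes passed, and the smallest adjusted p among them was 0.819, for Axl. DESeq2 and limma voom also called 0 of the 10, against 0.492% and 0.231% of all genes. At an unadjusted p under 0.05 edgeR again counted 0 of 10, with 6.06% of all genes at that level, and the groups overlapped in every member where 4.19% of all genes showed no overlap. The median log2 fold change was -0.18, with 3 members above and 7 below 0, against a median of -0.00 over all genes tested. The intervals differ widely: those of Mfge8, Stab1 and Itgav stay between 0.655-fold and 1.45-fold, while that of Tyro3 runs from 0.127-fold to 1.57-fold.

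**Figure D1:**
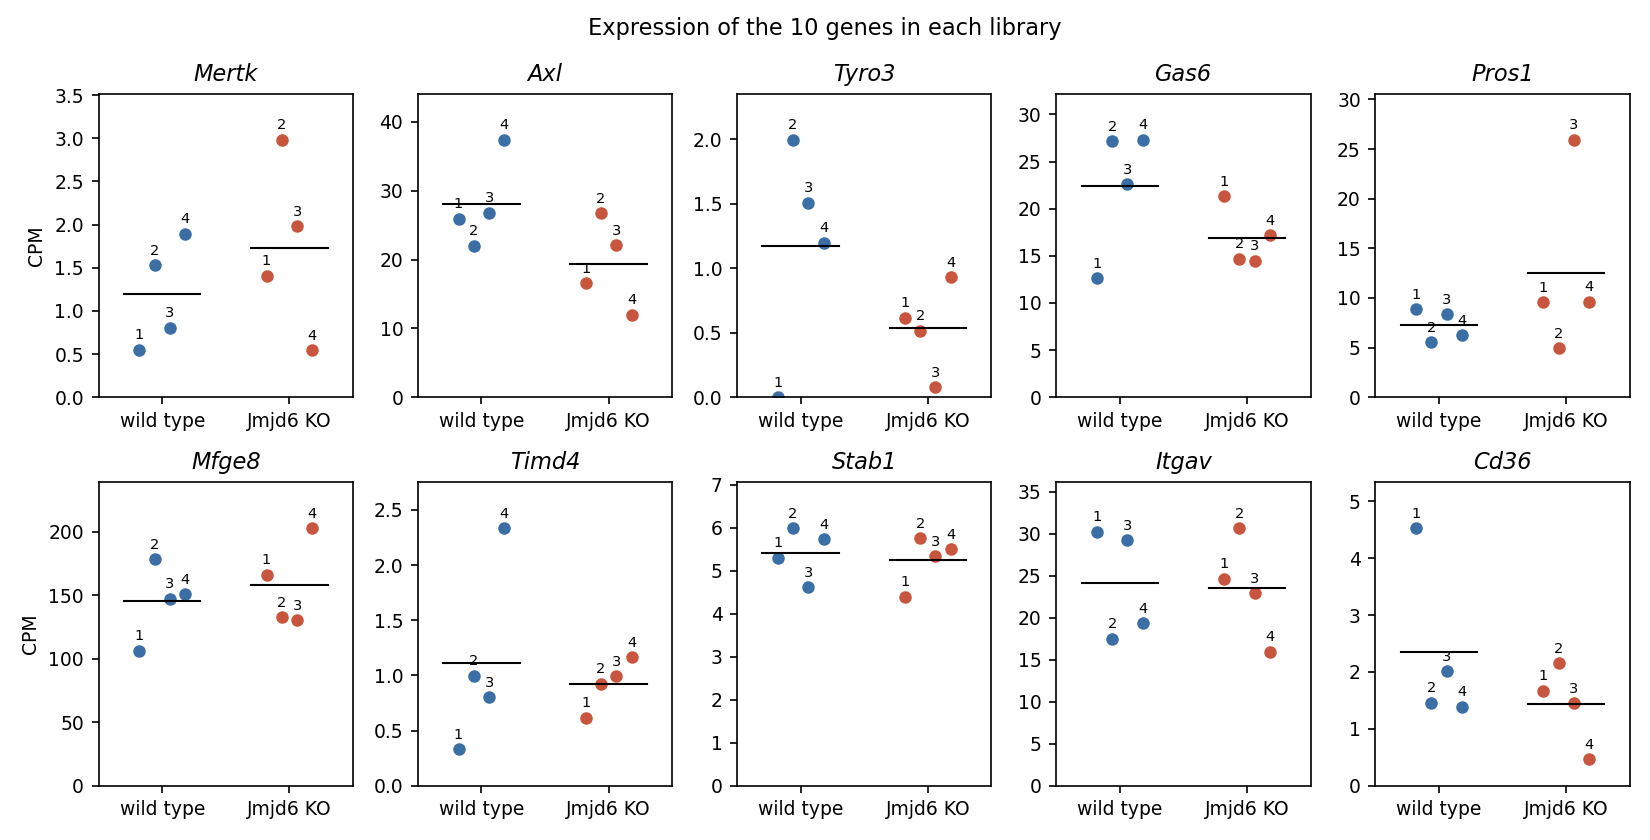
Level (CPM, linear axes from 0) of each of the 10 genes in 4 wild type libraries (blue) and 4 Jmjd6 KO libraries (red). Numbers beside points are replicate numbers and black lines are group means. The groups overlap in every panel, and the single high point of Pros1 is KO replicate 3 at 25.9 CPM.

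Levels were compared between genes after division by the length of all annotated exons of each gene. In wild type cells Mfge8, a secreted glycoprotein, was highest at 31.0 ± 6.34 CPM per kilobase (SD, n = 4), above every other member in each library. Gas6 and Axl followed at 8.79 ± 2.71 and 5.57 ± 1.31 CPM per kilobase, and their libraries overlapped. Itgav and Pros1 formed a lower pair, at 2.24 ± 0.614 and 1.77 ± 0.392 CPM per kilobase, that overlapped one another and no other member. Cd36, Stab1, Timd4, Mertk and Tyro3 lay below 1 CPM per kilobase on average, from 0.654 ± 0.412 for Cd36 to 0.190 ± 0.137 for Tyro3, and neighbours in that order overlapped. In KO cells Mfge8, Gas6 and Axl again led by mean, at 33.6 ± 7.26, 6.64 ± 1.24 and 3.84 ± 1.28 CPM per kilobase. Tyro3 was again last by mean, at 0.0862 ± 0.0569. There Gas6 and Axl did not overlap, while Pros1, at 3.06 ± 2.25, ranked above Itgav, at 2.19 ± 0.563, and overlapped Gas6, Axl and Itgav. In KO replicate 3 Pros1, at 6.34 CPM per kilobase, lay above Gas6 at 5.69 and Axl at 4.38. With the longest coding transcript as the length, chosen after seeing the data, the wild type order was the same although Mfge8 rose to 68.5 CPM per kilobase.

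**Figure D2:**
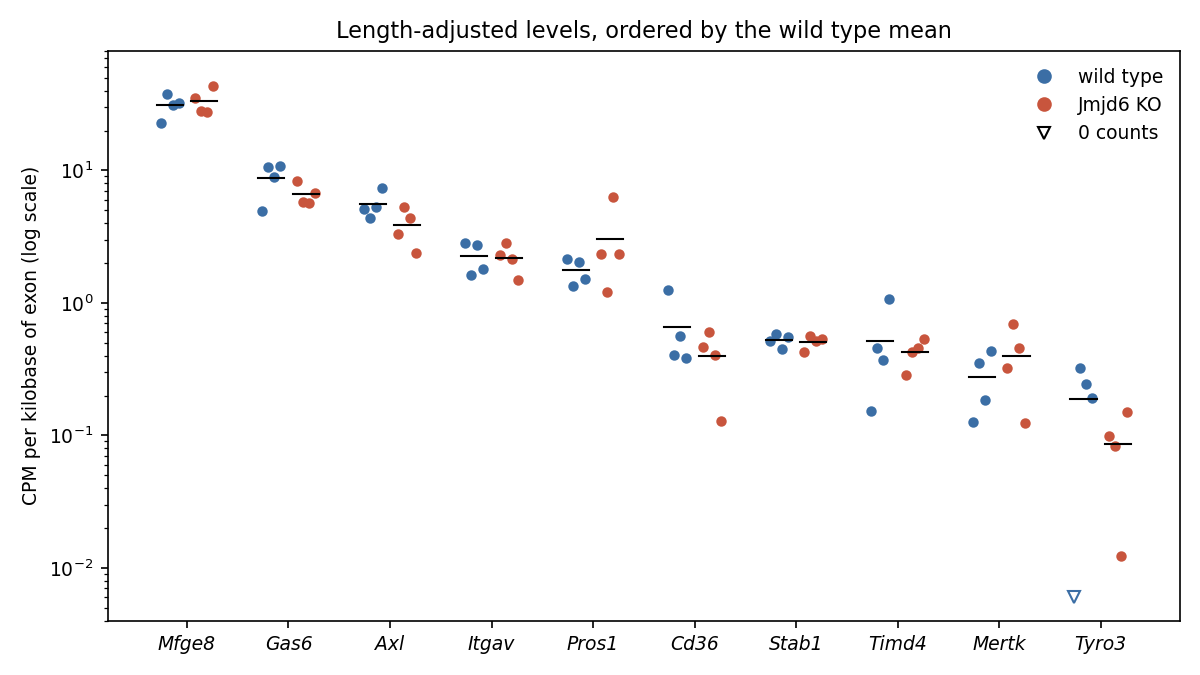
CPM per kilobase of annotated exon (log axis) for each gene, ordered by the wild type mean, with wild type libraries in blue, Jmjd6 KO libraries in red and group means as black lines. The open triangle marks the library with 0 Tyro3 counts. Mfge8, Gas6 and Axl lead by mean in both groups, and the 5 genes at the right lie mostly below 1.

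Among the TAM kinases, which sit in the membrane and signal engulfment and damping of inflammation, Axl was the main transcript. Axl (chromosome 7, 25757273 to 25788705, minus strand, mm10) read 26.0, 22.0, 26.8 and 37.4 CPM in wild type replicates 1 to 4. The KO libraries read 16.5, 26.7, 22.0 and 12.0 CPM. Wild type replicate 4 was the highest of all and KO replicates 1 and 4 the lowest, with the middle of both groups overlapping. Axl gave a log2 fold change of -0.54 (95% interval -1.12 to 0.04), at an unadjusted p of 0.0649 (adjusted p = 0.819 by edgeR). It kept its direction with any 1 library left out, from -0.71 without KO replicate 2 to -0.37 without wild type replicate 4. Within the 6 libraries that had Y-linked counts it was -0.44, and the Xist-carrying libraries alone, 1 per genotype, read 37.4 CPM (wild type) and 22.0 CPM (KO).

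Mertk, the TAM kinase best known from macrophages that clear dying cells, was near the limit of detection. Mertk (chromosome 2, 128698956 to 128802894, plus strand) had 5, 23, 8 and 30 counts in wild type and 16, 29, 26 and 7 counts in KO libraries, or 1.19 ± 0.623 and 1.73 ± 1.02 CPM. Its log2 fold change was 0.48 with an interval from -0.75 to 1.72. Each group held both low and high libraries, and the value ranged from 0.12 without KO replicate 2 to 0.79 without wild type replicate 4.

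Tyro3 (chromosome 2, 119797733 to 119818104, plus strand), the TAM kinase best known from the nervous system, was scarcer still. Wild type libraries had 0, 30, 15 and 19 counts and KO libraries 7, 5, 1 and 12. The other three wild type libraries lay above every KO library, and wild type replicate 1, the library with the smallest total, lay below them all. A count of 0 among 9344779 allows up to 3 counts. The log2 fold change was -1.16 (interval -2.97 to 0.66, adjusted p = 0.834 by edgeR), and -1.52 without wild type replicate 1 (adjusted p = 0.818 by edgeR).

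As a share of the TAM transcript level per kilobase, Axl made up 92.2% ± 4.48 in wild type and 89.0% ± 1.31 in KO libraries (SD, n = 4). Mertk made up 4.51% ± 2.09 and 8.55% ± 2.78, and Tyro3 the remainder. The ranges of each share overlapped between genotypes, with Mertk from 2.41% to 6.99% in wild type and from 4.70% to 11.3% in KO.

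Of the TAM ligands, vitamin K-dependent proteins that bind phosphatidylserine through their Gla domains, Gas6 was the more abundant. Gas6 (chromosome 8, 13465374 to 13494490, minus strand) read 12.6, 27.1, 22.6 and 27.3 CPM in wild type and 21.3, 14.7, 14.5 and 17.2 CPM in KO libraries. Wild type replicate 1 was the lowest of the 8, and only KO replicate 1 came near the other three wild type libraries. The log2 fold change was -0.41 (interval -0.98 to 0.16, adjusted p = 0.833 by edgeR). Without wild type replicate 1 it was -0.59 with an unadjusted p of 0.0189 (adjusted p = 0.734 by edgeR). Within the 6 libraries that had Y-linked counts it was -0.23. Gas6 shares 34 exon bases with Tmem255b on the opposite strand.

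Pros1, protein S, which also serves as an anticoagulant cofactor, gave the largest positive value of the 10 through a single library. Pros1 (chromosome 16, 62854307 to 62929346, plus strand) read 8.83, 5.52, 8.34 and 6.24 CPM in wild type. The KO libraries read 9.59, 4.94, 25.9 and 9.61 CPM, so KO replicate 3 stood alone above 10 CPM. The log2 fold change was 0.80 (interval -0.14 to 1.74, adjusted p = 0.833 by edgeR). Without KO replicate 3 it was 0.17, and limma voom with sample weights gave -0.02. In that library Pros1 was 52.7% of the Gas6 and Pros1 level per kilobase, against 11.3% to 30.4% in the other 7.

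Mfge8, the bridge between phosphatidylserine and integrins, had a coefficient of variation of 20.4% in wild type and 21.6% in KO libraries. Mfge8 (chromosome 7, 79133768 to 79149060, minus strand) read 106, 178, 147 and 151 CPM in wild type and 166, 132, 130 and 203 CPM in KO libraries. The lowest library was wild type and the highest KO, with the rest interleaved. Its log2 fold change was 0.12, with an interval from -0.31 to 0.54 that corresponds to 0.808-fold to 1.45-fold, and it was -0.03 without KO replicate 4.

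Itgav, the alpha v subunit, pairs with Itgb3 or Itgb5 to bind Mfge8. Itgav (chromosome 2, 83724397 to 83806916, plus strand) read 30.3, 17.5, 29.2 and 19.4 CPM in wild type and 24.6, 30.6, 22.9 and 16.0 CPM in KO libraries. Both groups spanned the same range. The log2 fold change was -0.03, with an interval from 0.666-fold to 1.44-fold, and its sign turned with 3 of the single libraries left out. Itgav shares 634 exon bases with the antisense gene Gm13684, and reads of the pair may not have been told apart. Its partners Itgb3 and Itgb5 stood at 13.3 ± 1.22 and 28.2 ± 3.97 CPM in wild type and at 10.7 ± 3.27 and 28.5 ± 2.68 CPM in KO, with log2 fold changes of -0.32 and 0.01 (adjusted p = 0.850 and 0.991 by edgeR).

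The direct receptor Timd4, known from resident macrophages, had 3, 15, 8 and 37 counts in wild type and 7, 9, 13 and 15 counts in KO libraries. Timd4 (chromosome 11, 46810800 to 46844332, plus strand) therefore stood at 1.12 ± 0.858 and 0.924 ± 0.228 CPM, with wild type replicate 4 alone above 2 CPM. Its log2 fold change was -0.31 (interval -1.54 to 0.92) and turned to 0.34 without that library. Stab1, a large scavenger receptor of macrophages and sinusoidal endothelium, varied least. Stab1 (chromosome 14, 31139013 to 31168641, minus strand) read between 4.62 and 5.99 CPM in wild type and between 4.40 and 5.76 CPM in KO libraries, with a coefficient of variation near 11% in both groups. Its log2 fold change was -0.05, with an interval from 0.655-fold to 1.43-fold. Stab1 shares 112 exon bases with Nt5dc2 on the opposite strand.

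Cd36, a scavenger receptor for oxidised lipids and fatty acids, read 4.53, 1.46, 2.01 and 1.39 CPM in wild type and 1.67, 2.16, 1.45 and 0.465 CPM in KO libraries. Wild type replicate 1 was the only library above 3 CPM and KO replicate 4 the lowest. Cd36 (chromosome 5, 17781690 to 17888801, minus strand) had a log2 fold change of -0.69 (interval -1.89 to 0.51, adjusted p = 0.845 by edgeR), and -0.16 without wild type replicate 1. The same library carried 7 erythroid markers at a summed 428 CPM, against 24.3 to 70.2 CPM in the other 7 libraries, and neutrophil and granule markers at 4735 CPM, against 927 to 2125 CPM; the part of either in the Cd36 value was not tested.

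**Figure D3:**
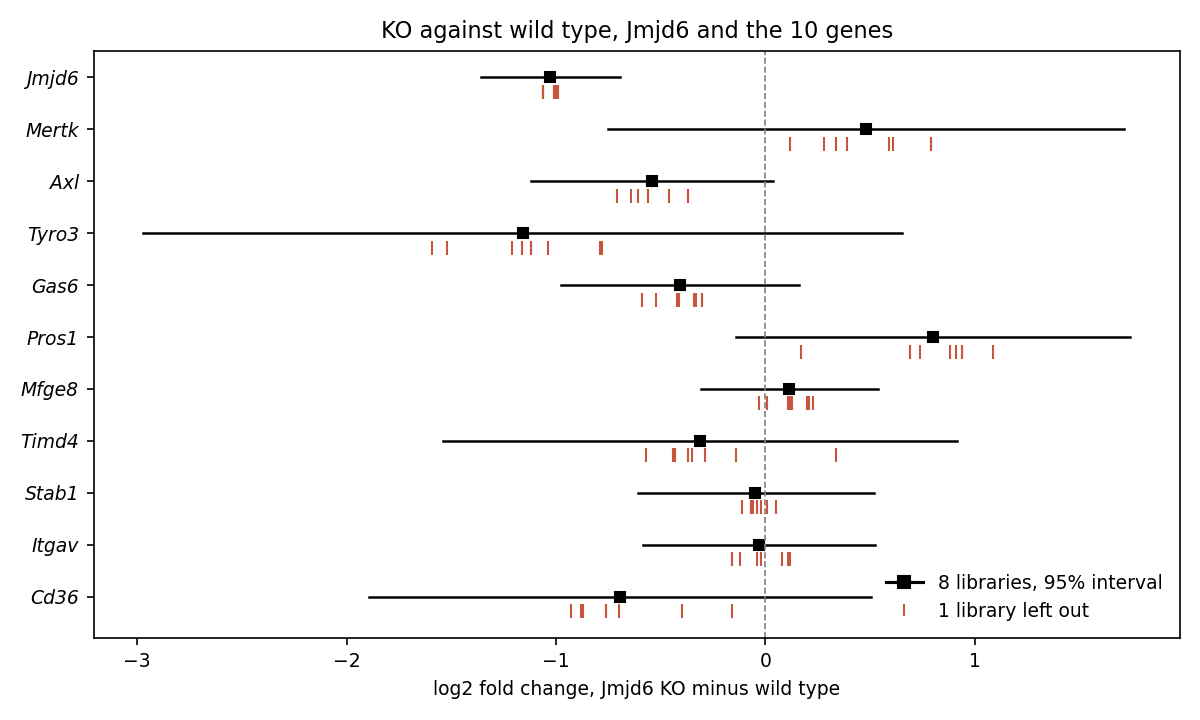
Log2 fold change (KO minus wild type) of Jmjd6 and the 10 genes. Black squares and lines give the edgeR estimate from 8 libraries and its 95% interval, and red ticks the estimate with each single library left out. The interval of Jmjd6 lies below 0 and those of all 10 genes cross 0; for Pros1 the tick at 0.17 is the fit without KO replicate 3.

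Because these genes are typical of macrophages, 16 macrophage markers were read in the same libraries. All 16 had counts, and their summed level ran from 177 to 310 CPM in wild type and from 222 to 360 CPM in KO libraries. The leading markers were C1qb, with wild type and KO means of 30.1 and 37.9 CPM, and Cd68, with 25.5 and 42.2 CPM. Of the 16 none passed by edgeR (smallest adjusted p = 0.112), and 12 lay above 0 with a median log2 fold change of 0.28. At an unadjusted p under 0.05 were 3 of 16 (18.8%, against 6.06% of all genes), and 2 of 16 showed no overlap between groups (12.5%, against 4.19%). These 2, named after their values were seen, were Vsig4, a complement receptor of resident macrophages, and the lectin Clec10a. Both were also among the 3, and they ranked 12 and 11 by p over all genes tested. The list was chosen with earlier results of these data known, so its shares are no test against those of all genes. Vsig4 had means of 0.580 ± 0.473 and 6.24 ± 3.59 CPM in wild type and KO (SD, n = 4), with a log2 fold change of 3.36. Clec10a ran from 4.32 to 7.62 CPM and from 14.8 to 17.9 CPM, with a log2 fold change of 1.37. Of the genes that define the sort, Kit had wild type and KO means of 473 and 463 CPM and Ly6a (Sca1) of 135 and 175 CPM, and the progenitor markers Cd34 and Flt3 of 1274 and 1242 CPM and of 553 and 543 CPM. Of the 8 markers of LSK cells 3 (37.5%, against 6.06% of all genes) had an unadjusted p under 0.05 and 0 passed by edgeR (smallest adjusted p = 0.489). Hlf, a transcription factor of stem cells, had means of 228 and 145 CPM (log2 fold change -0.65) and Slamf1 (CD150) of 5.71 and 10.8 CPM (0.93). These 2 showed no overlap between groups (25% of the list, against 4.19% of all genes). Mecom had means of 55.9 and 37.3 CPM (-0.58) with overlap. In bulk RNA fewer cells of a type and less RNA per cell cannot be told apart, and the part of macrophage RNA in the levels of the 10 genes was not tested, nor was that of the other cell types. Summed platelet markers overlapped between groups, at 114 to 241 CPM in wild type and 142 to 168 CPM in KO, but the log2 fold changes of all 7 tested were negative (median -0.32). Among them Ppbp, a platelet chemokine, ran from 1.31 to 3.31 CPM in wild type and from 0 to 1.07 CPM in KO libraries. It was the only 1 of the 7 with no overlap (14.3%, against 4.19% of all genes). All 7 tested erythroid markers were negative too (median -1.13). Endothelial markers summed to 260 to 332 CPM in wild type and 311 to 464 CPM in KO. Of the 5 tested 1 (20%, against 4.19% of all genes), Egfl7, showed no overlap, at 159 to 220 CPM and 224 to 330 CPM. Of 7 stromal markers only Pdgfrb passed the count filter, at 21.8 to 62.9 CPM in wild type and 22.4 to 84.0 CPM in KO, and the other 6 averaged under 1 CPM in both groups. The erythroid, dendritic cell, neutrophil and lymphocyte lists each held 1 tested gene with no overlap between groups (Tspan33, Zbtb46, Camp and Cd79b). Those were 1 of 7, 1 of 3, 1 of 7 and 1 of 3 tested genes, against 4.19% of all genes. These lists, too, were chosen with earlier results of these data known. None of the markers of any list passed by edgeR.

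Genes with the most similar pattern over the 8 libraries are given for the 5 members whose CPM spanned at least a 4-fold range, as the smallest root mean square difference after scaling each gene to mean 0 and SD 1. Mertk was nearest to Ppan and Clptm1l, with differences of 0.211 and 0.242. Tyro3 was nearest to Apc2 and Cdk18, at 0.148 and 0.231, and Pros1 to BC055324 and Dbt, at 0.207 and 0.236. Timd4 was nearest to Galnt11 and Mgat2, at 0.198 and 0.220, and Cd36 to Ofd1 and Slc25a36, at 0.203 and 0.226. No member was among the nearest of another. With 8 libraries and 13439 genes some close matches arise for any gene, so these names describe the libraries only.

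The rest of the pathway was read from lists of other recognition genes, of signalling and phagosome genes, and of genes for phosphatidylserine exposure and related signals. Among 30 other receptors and bridging molecules 20 were tested, and 0 passed by edgeR, limma voom or DESeq2, which gave no p for Thbs1. By edgeR 2 (10%) had an unadjusted p under 0.05, against 6.06% of all genes tested, and the median log2 fold change was 0.03. The tested genes with the smallest p were Lrp1, an endocytic receptor that binds calreticulin, Ager, Thbs1 and Tyrobp. Lrp1 read 9.72, 12.2, 11.3 and 10.3 CPM in wild type and 9.77, 6.58, 4.65 and 5.89 CPM in KO libraries. Only KO replicate 1 reached the wild type range, and the log2 fold change was -0.70 (interval -1.28 to -0.11, adjusted p = 0.772 by edgeR). Ager, a receptor of the immunoglobulin family that binds phosphatidylserine, gave -1.08 and Tyrobp, the signalling adaptor of Trem2, gave 0.32, with adjusted p of 0.772 and 0.832 by edgeR. Thbs1, a secreted bridge to Cd36, gave -3.80 through wild type replicate 4 at 219 CPM, with no other wild type library above 2.13 CPM, and 1.66 without it.

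A further 10 recognition genes fell under the count filter, among them the phosphatidylserine receptors Adgrb1 (Bai1) and Havcr1 (Tim1), with 5 and 14 counts over all 8 libraries. They were tested only in the fit without a filter, where edgeR called 0 of all 30.

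Of 34 genes of engulfment signalling and phagosome maturation 33 were tested, with 0 called by edgeR or limma voom. At an unadjusted p under 0.05 by edgeR were 3 (9.09%), against 6.06% of all genes tested. The median log2 fold change was -0.08, with 23 of 33 (69.7%) below 0, against 50.4% of all genes. Only 1 of the 33 (3.03%), Ptk2, showed no overlap between groups, against 4.19% of all genes. Ptk2, which encodes focal adhesion kinase and acts downstream of alpha v integrins, read 7.51, 8.78, 7.33 and 14.9 CPM in wild type. Its KO libraries read 1.94, 4.22, 2.59 and 4.88 CPM, all below the lowest wild type value. Ptk2 gave a log2 fold change of -1.50 (SE 0.366, interval -2.30 to -0.70), at an unadjusted p of 0.00153 (adjusted p = 0.387 by edgeR). DESeq2 called it, at an adjusted p of 0.0228. With single libraries left out it lay between -1.73 and -1.21, and at -1.10 within the 6 libraries that had Y-linked counts.

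The next by p were Abca1, the lipid exporter that phagocytes raise after engulfment, and the adaptor Gulp1, at -0.56 and -0.89, each with an unadjusted p under 0.05 and an adjusted p of 0.772 and 0.792 by edgeR. Dock1, the exchange factor that activates Rac beside Elmo proteins, gave -0.40 (adjusted p = 0.833 by edgeR). Of other genes of the list, Elmo1 stood at 258 ± 21.3 and 279 ± 39.1 CPM in wild type and KO. Dock2 stood at 229 ± 13.4 and 228 ± 43.4 CPM, and Rac1 at 508 ± 18.9 and 499 ± 71.6 CPM. The log2 fold changes of Elmo1, Dock2 and Rac1 were 0.11, -0.01 and -0.03. Rhog gave 0.19 (interval -0.35 to 0.72) and Trio -0.25 (interval -0.895 to 0.39). Rubcn and Becn1, of the phagosome's lipid kinase complex, gave -0.28 and 0.09.

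For phosphatidylserine exposure, find-me and do-not-eat-me signals, 25 of 26 genes were tested, and 0 passed by edgeR, limma voom or DESeq2, which gave no p for Sphk1. The median log2 fold change was -0.14 with 20 of 25 below 0, where 50.4% of all genes tested lay below 0. By edgeR 1 (4%) had an unadjusted p under 0.05, against 6.06% of all genes tested. The 1 was Sphk1, which makes the attractant sphingosine 1-phosphate. Sphk1 gave -4.41 (adjusted p = 0.518 by edgeR) with 38.9 CPM in wild type replicate 1 and at most 2.26 CPM elsewhere, and -1.86 without that library. Siglecg, an inhibitory receptor for Cd24a, gave 0.37, and Atp11a, a flippase that returns phosphatidylserine to the inner face, gave -0.53, with adjusted p of 0.817 for both by edgeR. Cx3cl1, a find-me chemokine, gave -0.95 (adjusted p = 0.833 by edgeR). Cd47, the best known do-not-eat-me signal, had means of 902 ± 106 and 865 ± 82.0 CPM in wild type and KO, and the scramblase genes Xkr8 and Ano6 gave -0.14 and -0.16. Xkr4, a scramblase of other tissues, had 0 counts in all libraries.

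**Figure D4:**
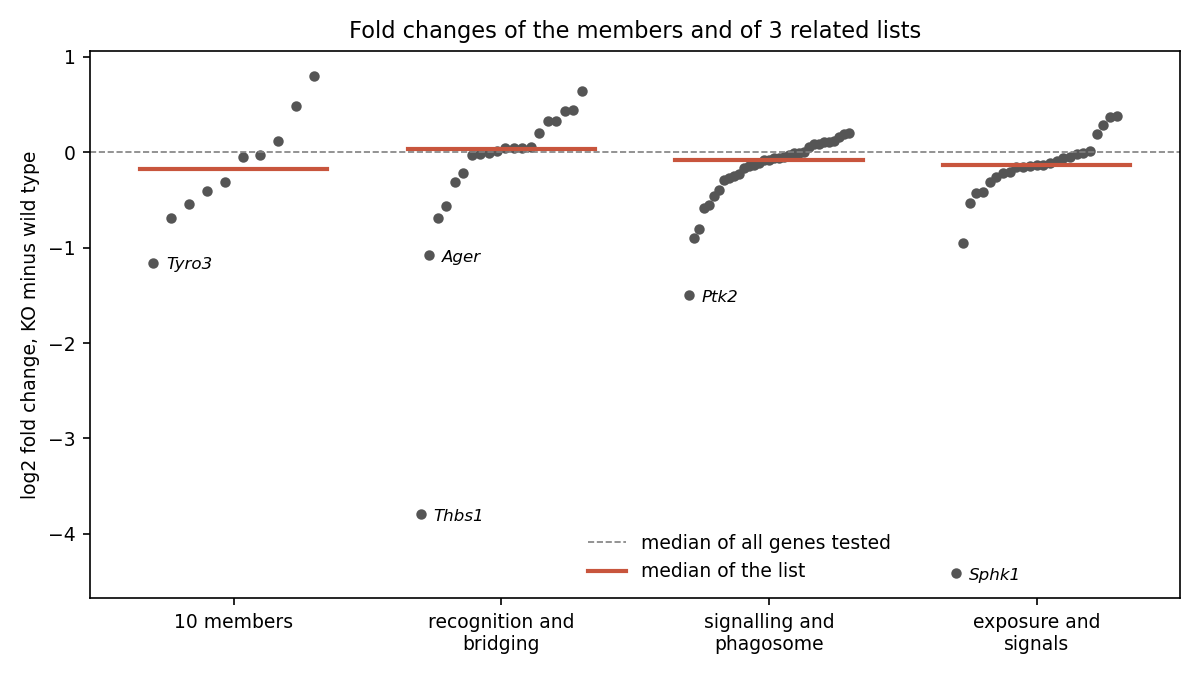
Log2 fold change (KO minus wild type, edgeR) of each tested gene in the 10 members and the other pathway lists, sorted within each list, with the list median in red and the median of all genes tested as a dashed line. Genes past 1 in size are named; Thbs1 and Sphk1 rest on wild type replicates 4 and 1.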

How the data were processed

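Raw counts per gene symbol were deposited as 1 table of 8 libraries. Reads were aligned with HISAT2 to mm10, per the submitters' processing notes; how reads were counted, against which annotation and whether by strand is not stated in the labels. Columns were matched to samples by genotype and replicate number. Depth limits the scarce members, and a floor of 3 counts covers counting error only.

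KO was compared with wild type over all 8 libraries by the quasi-likelihood test of edgeR 4.0.16 (R 4.3.3) with TMM scaling and filterByExpr (min.count 10, min.total.count 15). P-values were adjusted by Benjamini-Hochberg over all 13439 genes and called under 0.05. CPM uses TMM-adjusted library sizes; similarity of pattern used log2 CPM with a prior count of 2. Intervals are 95% and come from the SE of the fit. Alternatives were DESeq2 1.42.0 (size factors, Wald test), limma 3.58.1 voom with sample weights, scaling by library size, testing without a filter, a CPM above 1 in 4 libraries or more, a replicate block, left-out libraries and a threshold of 0.1. Positions and exon lengths came from GENCODE M21 (GRCm38).

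The members and lists were chosen with earlier results of these data known. The rule for named genes took all members, the 4 tested genes of each related list with the smallest p, the leading 2 genes of marker lists, and the 2 genes most alike in pattern to members spanning at least a 4-fold range; not all that it names are printed. Itgb3, Itgb5 and the other pathway genes given for their role were chosen after their values were seen.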

Additional observations from a re-analysis of the deposited data

Results flagged for a closer look

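In 4 of 46 groups of 4 libraries examined, a single library lay far from the others of its group. Chance flags about 1 in 20 when values are normally distributed, which untransformed CPM need not be. The pathway genes examined were also chosen by their smallest p in these data. None of the 4 flagged groups was of the 10 members. Thbs1 stood at 219.4 CPM in wild type replicate 4 and at 14.34 CPM in KO replicate 3, the libraries with Xist and no Y-linked counts, and at no more than 2.13 CPM in the other 6. Sphk1 stood at 38.87 CPM in wild type replicate 1, where no other wild type library exceeded 2.26 CPM. Abca1 was low in KO replicate 4, at 17.2 CPM, below the 27.5 to 28.3 CPM of its group.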

How the results depend on the processing

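No member was called in any of 17 other fits or at a threshold of 0.1, and no more than 2 members had an unadjusted p under 0.05 in any 1 fit. The other lists kept counts of 0, except that DESeq2 called 1 signalling gene, Ptk2. Tyro3 and Timd4 were not measured under the stricter filter or among the 6 libraries with Y-linked counts, where 8 members were left. For Jmjd6 the log2 fold change was -1.02 with the replicate block, -1.02 among those 6 libraries and -1.11 without wild type replicate 1 and KO replicate 3, each time with the call lost. Left-out libraries gave -1.06 to -0.99, and DESeq2 and limma voom kept the call at -1.03 and -1.02. The sign turned for Pros1 by limma voom (-0.02), and for Itgav by limma voom (0.08) and without wild type replicate 1 and KO replicate 3 (0.11). With single libraries left out it turned for Mfge8 (-0.03 to 0.23), Timd4 (-0.57 to 0.34), Stab1 (-0.11 to 0.05), Itgav (-0.16 to 0.12) and Thbs1 (-6.94 to 1.66). The causes were not tested. Of 366 values of members and named genes 354 kept direction and side of the threshold; DESeq2 gave no p for Thbs1 and Sphk1. Over all genes the replicate block took the calls from 8 to 3, but the numbers share only a label: deviations of same-numbered libraries correlated at 0.03, -0.01, -0.18 and -0.19 across genes, and no wild type library correlated best with its own number. Library size alone moved the median of all genes by less than 0.1.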

Other observations

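The members did not rise or fall as a block from library to library. Wild type replicate 1 was the lowest wild type library for 5 of the 10 genes (Mertk, Tyro3, Gas6, Mfge8 and Timd4) and the highest for 3 (Pros1, Itgav and Cd36). KO replicate 4 was the lowest KO library for Mertk, Axl, Itgav and Cd36 and the highest for Tyro3, Mfge8 and Timd4. KO replicate 2 was the highest KO library for 5 genes, Mertk, Axl, Stab1, Itgav and Cd36. These are descriptions of single libraries with no test.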
